A study of Mus musculus with 8 samples.

Results

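Vcam1 encodes vascular cell adhesion molecule 1 (VCAM-1), and CD106 is the name of the same protein when an antibody reads it at the cell surface. The Vcam1 row, 1 of 32285 genes, and the CD106 row, 1 of 18 surface antibodies, are described here in marrow, spleen, blood and tumor cells of tumor-bearing mice. The gene and its antibody were selected on their own counts by tissue, so levels by tissue are given as a description with no test. Tests are given only between cell classes and between cells inside the marrow library. The choice compared tissues and not classes, but marrow values of these classes entered it. The tests are therefore not independent of the choice. The gene (ENSMUSG00000027962) lies on mouse chromosome 3 at 116110020 to 116129688 of GRCm38.p6, a span of 19669 bases.

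VCAM-1 belongs to the immunoglobulin superfamily. It is displayed by inflamed endothelium, marrow stromal cells and resident macrophages, where it holds leukocytes and progenitors through the integrins alpha4-beta1 and alpha4-beta7. ADAM17 sheds it from the surface, and the neutrophil proteases elastase and cathepsin G cleave it in marrow when cells are mobilized.

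Female C57BL/6J mice carried MOPC cells, a mouse oropharyngeal carcinoma line, under the skin of the flank. Blood, marrow, spleen and tumor were sorted for DAPI-negative cells of 2 gates, Gr1+ without the lineage markers NK1.1, FcRe, Ter119, B220 and CD3, and Gr1- with cKit. RNA and antibody tags of a tissue were sequenced as separate libraries, 1 of each. Stroma and endothelium, which are known for VCAM-1, fall outside these gates unless they carry Gr1 or cKit. Tumors alone were digested with enzymes, for 45 min at 37 °C. Cell numbers were brought to similar levels before loading of about 16000 cells per library, so shares of cells describe the sort and not the organ. Every group used here came from tumor-bearing mice. Wild-type mice and mice of a knockout that the labels do not name were pooled in each tissue. Hashtag antibodies mark mouse and organ, but no label ties a hashtag to a genotype. Each of the 8 hashtags in a tissue was treated as 1 mouse, which is an assumption, and the genotypes inside every group below are unknown. The tissue of a cell rests on the number that ends its barcode, a tie that no label states outright.

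There were 7763 blood, 5682 marrow, 6105 spleen and 462 tumor cells, with medians of 3132, 7999, 3461 and 8663.5 unique molecular identifiers (UMIs). Median surface antibody counts per cell were closer, from 1161.5 in tumor to 1867 in marrow. 31 barcode sequences were shared by 2 or more libraries. Cells with several hashtags, which can be doublets of different mice, stayed out of all sums per hashtag but not out of counts over all cells. They made up 49 of the 225 marrow cells with a Vcam1 UMI.

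Vcam1 RNA was found in few cells and in 3 of the 4 tissues. Marrow held 458 Vcam1 UMIs in 225 of 5682 cells (3.96%, exact 95% interval 3.47 to 4.50%), of which 146 cells held 1 UMI and 79 held more. Spleen held 267 UMIs in 107 cells (1.75%) and tumor 164 UMIs in 29 cells (6.28%), where the top 3 cells held 56.1% of them. Blood held 0 UMIs in 7763 cells. Its floor of 3 counts over the library lies at 0.0876 UMIs per 1000000 UMIs (CPM), against 7.15 CPM in marrow, so the marrow level over all cells was at least 81.5-fold higher. The 2 libraries hold different mixes of cells. In the classes defined below, mature neutrophils had 2.91 CPM in marrow against a blood floor of 0.149. The marrow value rests on 19 UMIs in 8 cells. 1 of them held 10 of these UMIs and also 768 UMIs of the progenitor gene Elane. A UMI of the macrophage marker C1q was present in 3 of the 8, against 0.427% of the other marrow cells of this class. The value is therefore not read as expression by mature neutrophils in general. Marrow monocytes, at 0.448 CPM, lay under the blood monocyte floor of 0.505, so no difference is read for them. All intervals cover counting error only.

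Among the undigested tissues the antibody gave the same order as the RNA, marrow over spleen over blood. The digested tumor is outside this order, and its RNA level over all cells was the highest (22.9 CPM, against 7.15 in marrow and 5.33 in spleen). Median CD106 counts per cell were 4 in marrow, 0 in spleen, 0 in blood and 1 in tumor. Marrow CD106 summed to 90905 counts, or 71915 without 1 cell that had several hashtags and 18990 counts. Spleen summed to 15684, blood to 895 and tumor to 914. In blood cells with the mature neutrophil signature 94.7% had no CD106 count, while 13.1% of the same class in marrow had none.

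Cells were split into 4 classes by transcript counts. Immature neutrophils held at least 1% of their UMIs in the specific granule genes Camp, Ngp and Ltf. Mature neutrophils held under 1% of these and at least 3% in S100a8 and S100a9. Monocytes held at least 2 Ly6c2 and 1 Csf1r UMIs, Kit-positive cells held at least 1 UMI of the stem cell factor receptor Kit, and cells that met more than 1 rule were left out of the classes (756 marrow cells).

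These names are those of the rules, and the clusters behind them differed by tissue. Marrow Kit-positive cells fell to 87.4% into cluster 19, led by Car1, Angpt1 and Car2. In spleen the class was spread over this cluster (32.3%) and the conventional dendritic-like clusters 10 (37.1%) and 17 (27.2%). Of the marrow monocytes, 59.8% lay in cluster 22, where the progenitor genes Prtn3, Ctsg and Elane are among the leading genes, and 38.2% in the classical monocyte-like cluster 6, against 85.5% in cluster 6 in spleen. Tumor cells that met the mature neutrophil or monocyte rule lay to 95.3% and 96.6% in the macrophage-like cluster 15, which goes against those names, so they are called by their rule here.

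Immature neutrophils had the highest Vcam1 RNA of the 4 marrow classes. Over 8 hashtags they ranged from 5.27 to 17.7 CPM with a median of 11.2, and every hashtag held the transcript (10.7 ± 4.14, SD, n = 8). Kit-positive cells ranged from 0 to 17.02 CPM with a median of 5.24 (6.14 ± 5.30, n = 8), overlapping the immature class. Mature neutrophils ranged from 0 to 15.4 CPM with a median of 0.73 (2.998 ± 5.25, n = 8), and 7 of these 8 hashtags lay at or under 3.73. Monocytes were at 0 in 6 of 8 hashtags and reached 3.98 CPM in 1 (0.57 ± 1.39, n = 8).

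Seen as shares of cells, 100 of 1585 marrow immature neutrophils (6.31%, exact 95% interval 5.16 to 7.62%) and 34 of 593 Kit-positive cells (5.73%, 4.00 to 7.92%) had a Vcam1 UMI. Only 8 of 1647 mature neutrophils (0.486%) and 2 of 691 monocytes (0.289%) had one. The monocyte share is given as a low reference from deep cells (median 14334 UMIs, against 9099 in immature and 19644 in Kit-positive cells). Whether it is technical background was not tested. Thinned to 1000 UMIs a cell, the shares were 0.826% in immature neutrophils (12 shallower cells left out), 0.169% in Kit-positive cells (1 left out), 0.122% in mature neutrophils (13 left out) and 0% in monocytes (2 left out). The Kit-positive and mature shares then stand for 1 and 2 cells, and no order is read from them.

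CD106 counts separated the same classes in another order. Per 10000 surface antibody counts, Kit-positive cells ranged from 119 to 177 with a median of 145.7 (147 ± 23.5, SD, n = 8 hashtags). Immature neutrophils followed at 54.8 to 96.6 with a median of 83.5 (79.9 ± 14.4), mature neutrophils at 13.2 to 28.1 (20.5 ± 5.65) and monocytes at 9.91 to 15.2 (11.7 ± 2.08). No hashtag of the Kit-positive or immature class overlapped a hashtag of any other class, while the mature and monocyte ranges met. A CD106 count above 20 was found in 28.0% of Kit-positive cells, 23.1% of immature neutrophils, 3.52% of mature neutrophils and 0.579% of monocytes.

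**Figure D1:**
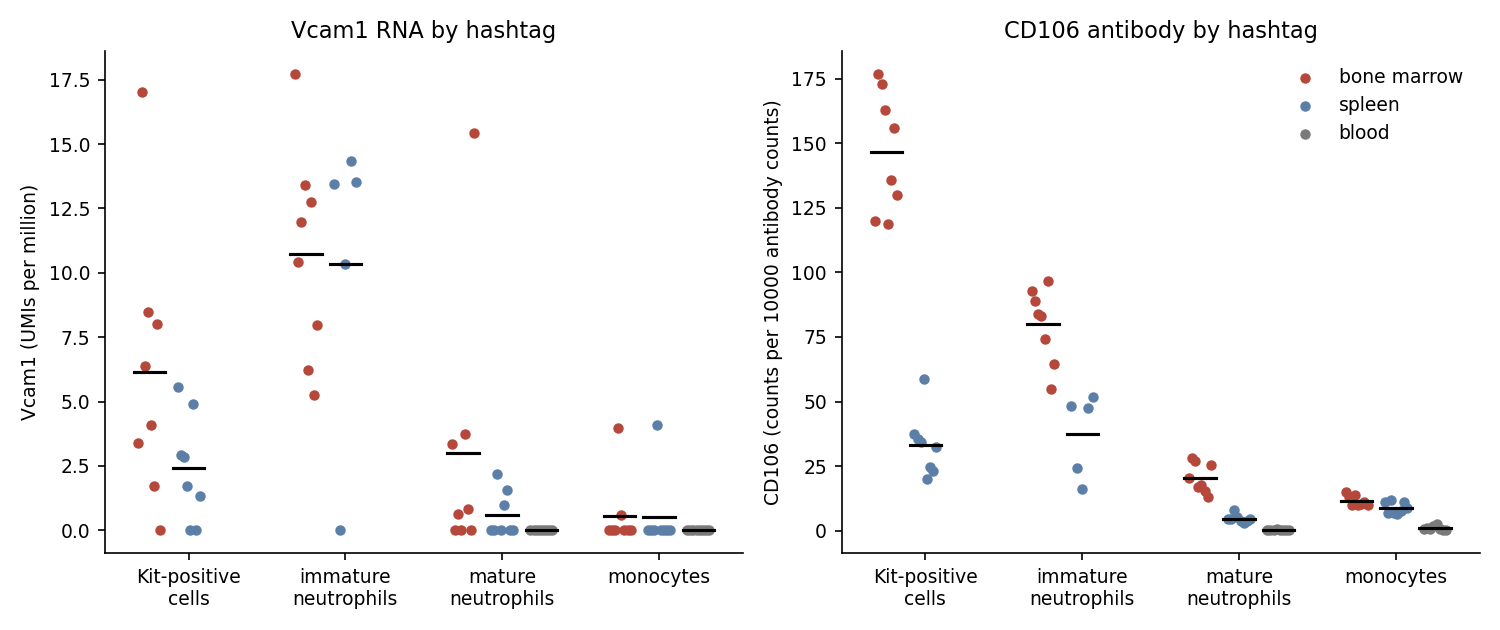
Vcam1 RNA in CPM (left) and CD106 in counts per 10000 surface antibody counts (right) by class, where each point is 1 hashtag with at least 20 cells of the class, colors are tissues and black bars are means. Marrow immature neutrophils sit between 5.27 and 17.7 CPM and marrow Kit-positive cells between 119 and 177 CD106 counts, while all blood points of Vcam1 lie at 0.

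Differences between the marrow classes were tested on counts summed per hashtag, so that p-values measure the spread between hashtags only, with edgeR's quasi-likelihood test over 10813 genes and the hashtag as a block. Vcam1 RNA was higher in immature than in mature neutrophils by 1.90 ± 0.55 on the log2 scale (SE, edgeR adjusted p = 0.00273), in a comparison that called 58.9% of all genes. With at least 2 Kit UMIs for the Kit-positive class the difference was 0.84 (edgeR adjusted p = 0.0949). Monocytes lay below immature neutrophils by -4.27 ± 0.64 (edgeR adjusted p = 8.39e-08, with 85.8% of genes called) and below mature neutrophils by -2.37 ± 0.99 (edgeR adjusted p = 0.0256, 85.4% called). Kit-positive cells lay above monocytes by 3.32 ± 0.75 (edgeR adjusted p = 0.000145, 66.8% called). With 58.9 to 89.0% of genes called in these comparisons, being called says little about 1 gene, and the sizes carry the description.

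The contrasts of Kit-positive cells with the neutrophil classes were less firm. Kit-positive cells lay below immature neutrophils by -0.94 ± 0.38 (edgeR adjusted p = 0.0214, 87.7% called), while the median gene of that comparison lay 1.12 higher. Without hashtag 6 the difference was -0.63 (edgeR adjusted p = 0.144), and it missed the threshold in 4 other settings given with the limits of processing. Against mature neutrophils the difference was 0.95 ± 0.62 and did not pass (edgeR adjusted p = 0.146, 89.0% called). 1 hashtag moved the values that involve mature neutrophils. Without hashtag 8 the difference of Kit-positive from mature cells was 2.58 (edgeR adjusted p = 0.000347), that of immature from mature cells was 3.38, and that of monocytes from mature cells was -0.75 (edgeR adjusted p = 0.497). In hashtag 8, 10 of the 11 mature Vcam1 UMIs came from 1 cell that also held 768 Elane UMIs.

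CD106 was tested with an exact two-sided sign-flip permutation test over the 8 hashtags, adjusted over the 6 class pairs. In all 6 pairs every hashtag moved in the same direction and the adjusted p was 0.0078125, the smallest this exact test can give. Immature exceeded mature neutrophils by 1.99 (SD 0.42) and monocytes lay below immature neutrophils by -2.77 (SD 0.29) on the log2 scale. Monocytes lay below mature neutrophils by -0.78 (SD 0.47), but with cells counted in every class whose rule they met the difference was -0.15, with 3 of 8 hashtags up (exact permutation adjusted p = 0.461). Kit-positive cells exceeded mature neutrophils by 2.87 (SD 0.41) and monocytes by 3.65 (SD 0.32).

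For Kit-positive cells against immature neutrophils, RNA and antibody went in opposite directions. CD106 per 10000 antibody counts was 0.88 higher in Kit-positive cells (SD 0.36, 8 of 8 hashtags), while Vcam1 RNA was lower. The size and call of that antibody difference varied with its scaling. As a centred log ratio over the antibodies it was 0.47, higher in 8 of 8 hashtags (exact permutation adjusted p = 0.0078125). Kit-positive cells carried a median of 932 surface antibody counts against 1802 in immature neutrophils, and in unscaled CD106 counts per cell the difference was -0.05 with 4 of 8 hashtags up (exact permutation test, adjusted p = 0.766). Per cell, Kit-positive cells and immature neutrophils had medians of 10 and 8 CD106 counts.

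**Figure D2:**
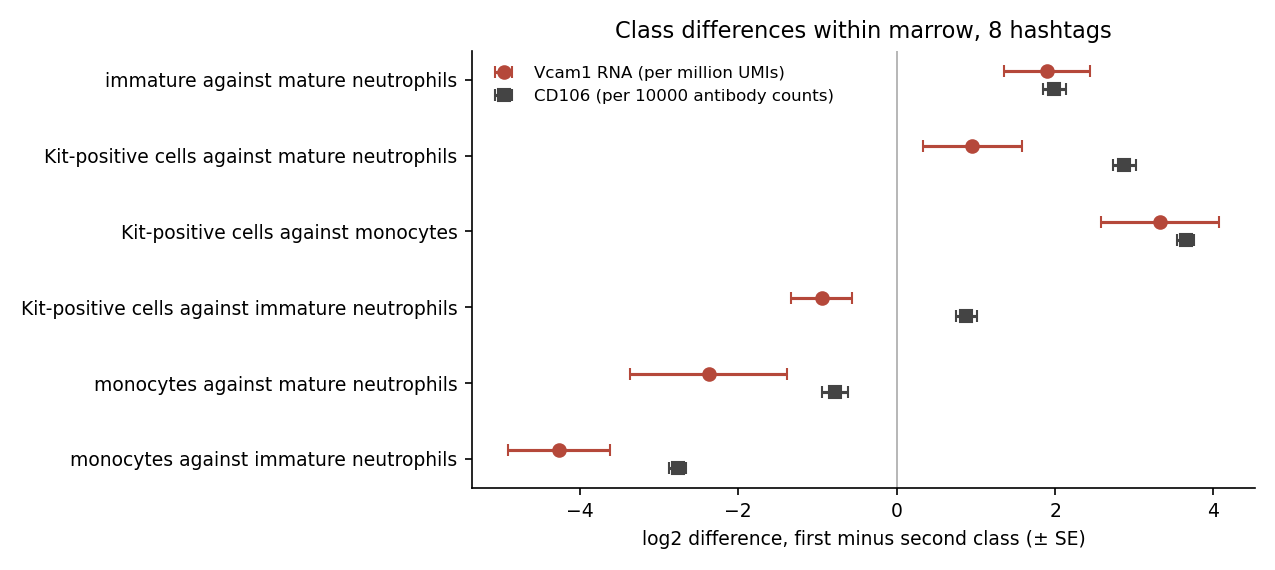
Difference between 2 marrow classes on the log2 scale (first minus second class, ± SE) for Vcam1 RNA in CPM (red circles, edgeR) and CD106 per 10000 antibody counts (grey squares), over 8 hashtags. Both readouts lie on the same side of 0 in 5 of the 6 pairs, and for Kit-positive cells against immature neutrophils they are -0.94 and 0.88.

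Among the bins of granule transcripts given here, Vcam1 was highest in cells that held both azurophil and specific granule transcripts. Azurophil genes (Elane, Mpo, Prtn3 and Ctsg, counted here with Ms4a3) are known from promyelocytes and their progenitors, and specific granule genes from the myelocyte stage that follows. The bins below were drawn after the data were seen and carry no test. A further bin, with at least 1% azurophil and 0.1 to 1% granule UMIs, had under 20 cells and is not given. Its place in this order is therefore not shown. Of 233 marrow cells with at least 1% azurophil and under 0.1% granule UMIs, 15.9% had a Vcam1 UMI (14.7 CPM), and the median CD106 count was 4. In the 22 cells with at least 1% of both, 72.7% had one (exact 95% interval 49.8 to 89.3%, 111 CPM), and the median CD106 count was 153. In 59 cells with 0.1 to 1% azurophil and at least 1% granule UMIs the share was 30.5% (25.9 CPM) and the median count 44. It was 6.58% (7.89 CPM) with a median count of 8 in 1991 cells with granule but under 0.1% azurophil UMIs, and 0.551% (1.51 CPM) with a median count of 3 in 1816 cells with neither but with at least 3% S100a8 and S100a9. Only 13 of the 22 cells and 34 of the 59 had an assigned hashtag, against 89.6% of marrow cells. Over these assigned cells the shares were 84.6% and 41.2% (151 and 41.1 CPM), with median counts of 160 and 67. Whether doublets entered these bins was not tested.

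Without cells that met the monocyte rule, also a choice made after the data were seen, 105 cells of the azurophil-only bin were left, with 29.5% positive, 32.3 CPM and a median CD106 count of 12. In the bin with both 13 of 15 cells were then positive (166 CPM, median count 293), and in the bin with 0.1 to 1% azurophil UMIs 34.9% of 43 cells (34.9 CPM, median count 66). The RNA of the azurophil-only bin and of this last bin thus lay close together once those cells were out, while CD106 did not.

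Among the bins given, RNA and antibody peaked in the same bin, which is also the deepest (median 33844.5 UMIs, against 30239 in the azurophil-only bin and 9577 in the granule bin). Antibody counts are read from a separate library, with medians of 3132, 1533 and 1880 per cell in those bins. Unscaled counts of CD49d, the alpha4 integrin chain that binds VCAM-1, also had their highest mean in the bin with both (98.2 per cell, against 46.5 before and 61.5, 28.0 and 11.3 after). The median of all surface antibody counts was highest in that bin too. CD49d was not scaled by them here, so no peak of CD49d is read from these means. No C1q UMI, a macrophage marker, was present in the 22 cells. At the threshold that separates immature from mature cells, 52 marrow cells with a granule share just under 1% and 45 with a share just over it held 0 Vcam1 UMIs, with median CD106 counts of 3.5 and 5.

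**Figure D3:**
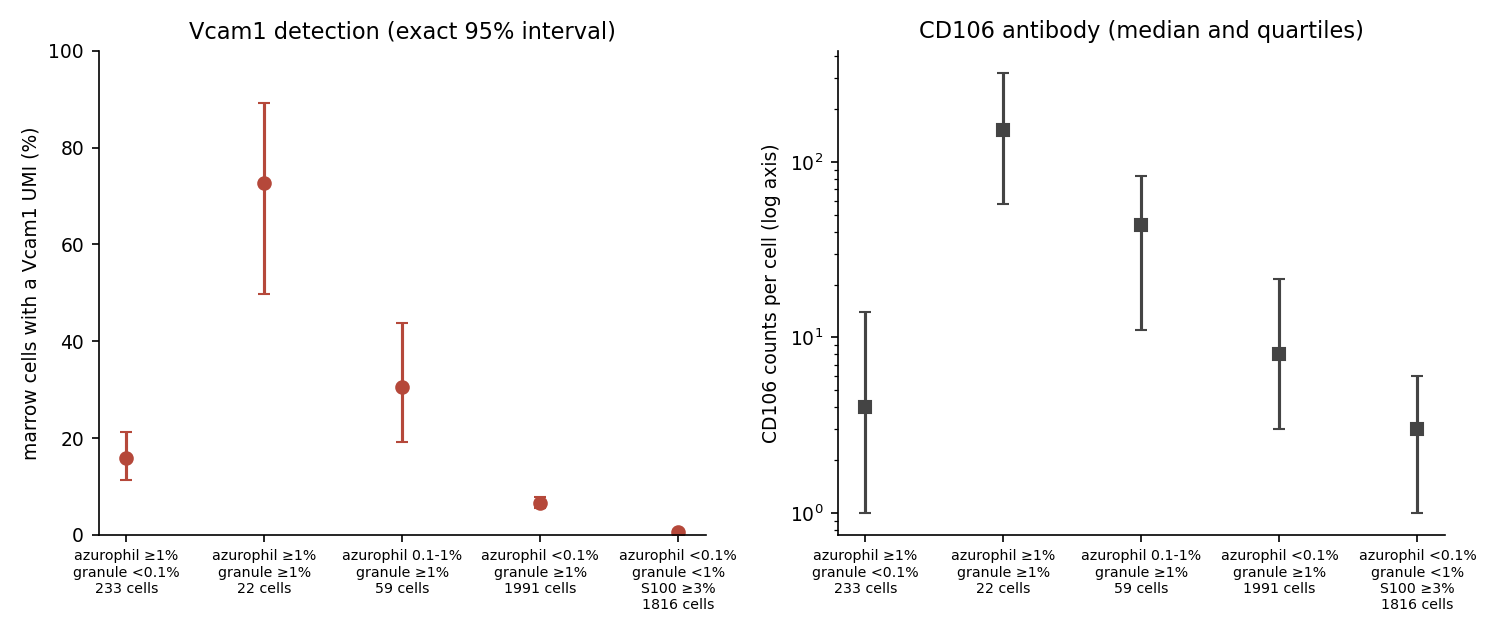
Share of marrow cells with a Vcam1 UMI (left, exact 95% interval) and CD106 counts per cell (right, median and quartiles, log axis) in 5 bins of azurophil (Elane, Mpo, Prtn3, Ctsg, Ms4a3) and specific granule (Camp, Ngp, Ltf) transcript share. Of the bins shown, both are highest in the 22 cells with at least 1% of each, at 72.7% and 153 counts.

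Clusters of all cells divided the same transcript by number and by level. Cluster 21, immature neutrophil-like and led by Fcnb, Camp and the division genes Ube2c and Top2a, held 6.86% of marrow cells but 51.5% of marrow Vcam1 UMIs and 42.4% of CD106 counts. Without the single cell of 18990 counts, which lies in it, the cluster held 50% of the UMIs and 27.2% of the counts. Of its 390 marrow cells 27.7% had a Vcam1 UMI, and their median CD106 count was 31.5. Cluster 20, granulocyte-monocyte progenitor-like (Elane, Mpo, Ctsg), had only 52 marrow cells and held 19.4% of the UMIs. Here 44.2% of cells had a UMI (60.2 CPM, against 30.4 CPM in cluster 21), the highest RNA level of the marrow clusters named here, with a median CD106 count of 12.5. Cluster 14, the larger immature neutrophil-like group led by Ltf, Ngp and Camp, had a share of 2.93% in 1333 cells and a median count of 7.

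Cluster 19 departed from this course. Its 657 marrow cells had little Vcam1 RNA (3.20% of cells, 2.18 CPM) but a median CD106 count of 11 and 142 counts per 10000. Cluster 22, which is as deep (median 20678 against 18065 UMIs) and had a like share of cells with a UMI (3.30%, 2.54 CPM), had a median count of 2 and 27.3 per 10000.

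**Figure D4:**
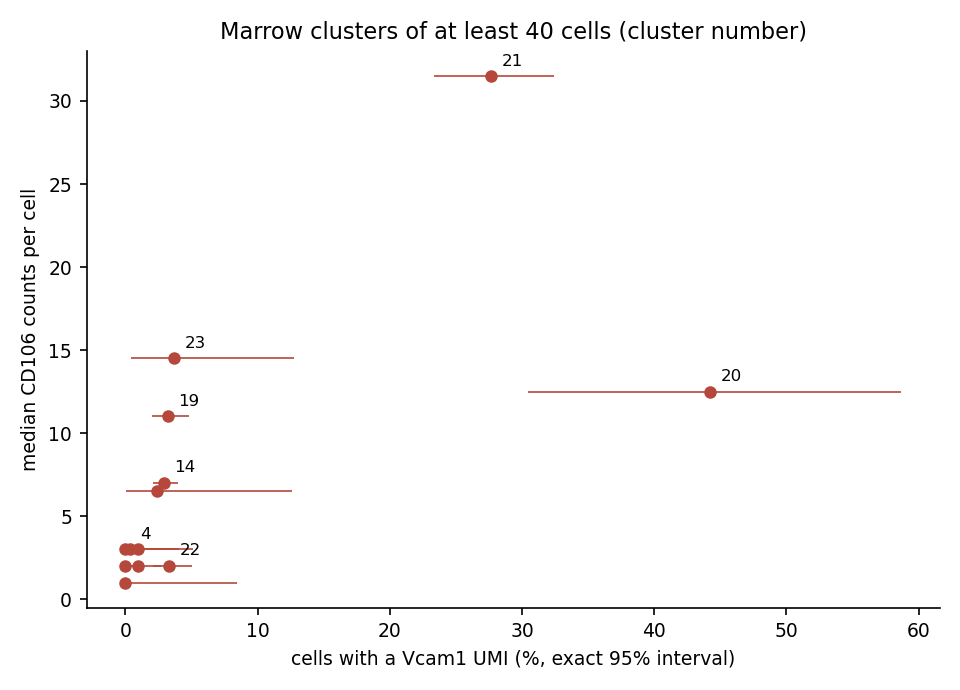
Share of cells with a Vcam1 UMI (x axis, exact 95% interval) against the median CD106 count per cell (y axis) for marrow clusters of at least 40 cells, some labelled by number. Clusters 21 and 20 stand apart in RNA, and cluster 19 has a median count of 11 at 3.20% of cells with a UMI while cluster 22 has 2 at 3.30%.

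The Vcam1 RNA of Kit-positive marrow cells lay mostly in those with azurophil transcripts. Counting every cell with a Kit UMI, 163 cells with at least 1% azurophil UMIs had 29.0 CPM and 25.8% with a Vcam1 UMI, against 4.65 CPM and 6.31% in the other 887. The median CD106 counts of these groups were 10 and 11. Of the cells with a Kit UMI, 205 that passed a cut on their share of erythroid transcripts had 1.85 CPM and a median CD106 count of 10. The 158 that passed a cut on early progenitor transcripts had 2.30 CPM and a median count of 9. Each list was applied on its own, so these groups can share cells. When azurophil-high cells were left out of the classes, a choice made after the data were seen, the Vcam1 RNA mean of Kit-positive cells was 0.758 CPM and they lay below immature neutrophils by -3.36 (edgeR adjusted p = 2.13e-09). CD106 was then still 0.84 higher per 10000 antibody counts. The 309 marrow cells that met both the Kit and the immature rule had 22.4 CPM, 15.9% with a UMI and a median CD106 count of 18.

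From cell to cell, Vcam1 UMIs and CD106 counts went together. Marrow cells without a Vcam1 UMI had a median CD106 count of 4 (5457 cells), cells with 1 UMI 37 (146 cells), with 2 UMIs 37.5 (32 cells) and with 3 or more 122 (47 cells). In the other direction, 0.375% of cells without a CD106 count had a Vcam1 UMI, 0.610% of those with 1 to 5 counts, 2.34% with 6 to 20, 15.4% with 21 to 100 and 64.1% (50 of 78) with more. Median UMIs in the lowest and the highest of these bins were 6057.5 and 25663.5, and the part of depth over all cells was not tested.

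Within 1 class the pairing was tested per hashtag. In the 7 hashtags with at least 5 such cells, marrow immature neutrophils with a Vcam1 UMI carried 179 to 320 CD106 counts per 10000, and those without carried 45.5 to 80.0, so that the ranges did not overlap. The difference was 1.89 on the log2 scale (SD 0.37, higher in 7 of 7 hashtags, exact sign-flip permutation p = 0.015625, adjusted p = 0.03125). Cells with a UMI were deeper, with median UMIs of 15354.5 to 20539 per hashtag against 8020 to 9087.5. Among cells with at least 10000 UMIs, a cut chosen after the data were seen, the difference was 1.26, higher in 6 of 6 hashtags (exact permutation adjusted p = 0.0625 over the classes).

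CD106 moved most of the 18 surface antibodies in this comparison. The cKit antibody followed at 1.09, CD49d at 0.80, CD1632 at 0.71 and CD11b at 0.67, each higher in 7 of 7 hashtags. CXCR2, a receptor of mature neutrophils, was at -0.99 and higher in 1 of 7, and the selectin CD62L was at -0.52 and higher in 0 of 7. These other antibodies were not tested. Kit-positive cells had 2 hashtags with enough cells, both higher (mean 1.52, exact permutation p = 0.5, the smallest 2 hashtags can give), and mature neutrophils and monocytes had none. With cells counted in every class whose rule they met, added after the data were seen, Kit-positive cells differed by 2.15 (SD 0.62, 7 of 7 hashtags, exact permutation adjusted p = 0.0156).

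**Figure D5:**
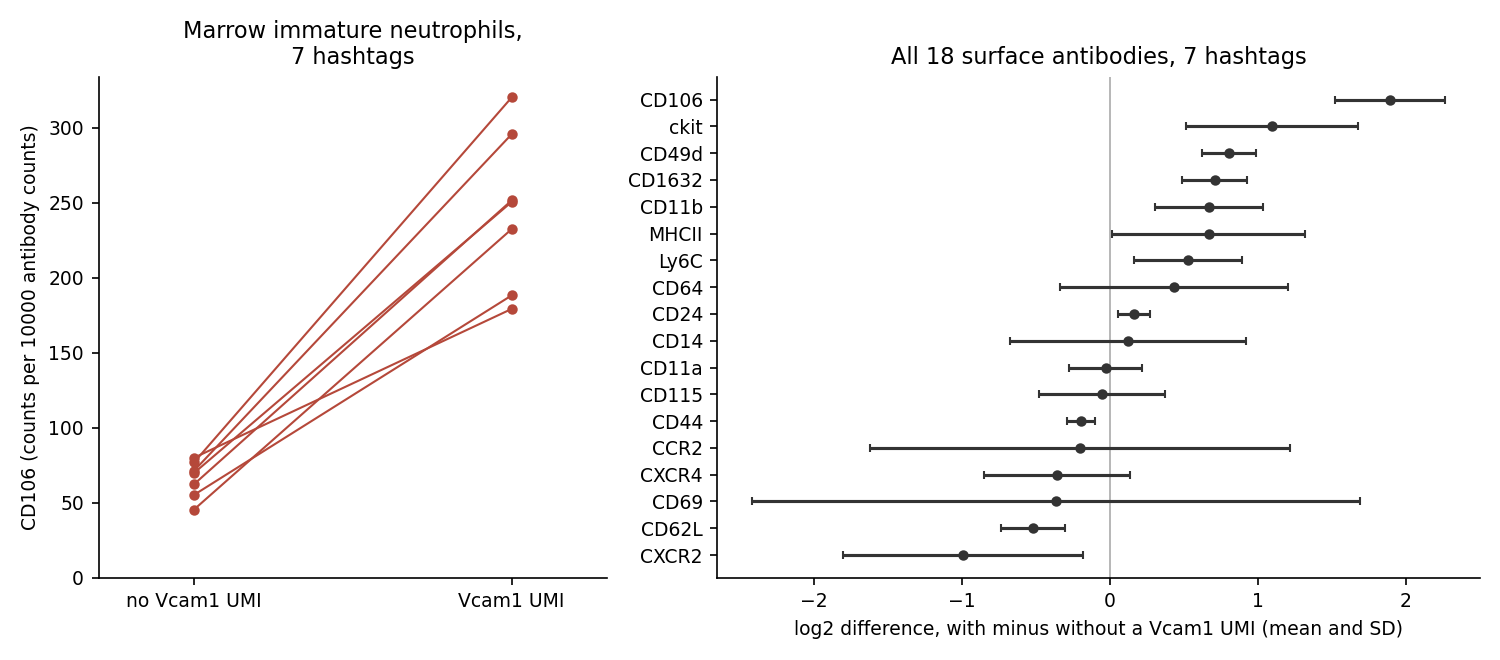
CD106 per 10000 surface antibody counts in marrow immature neutrophils without and with a Vcam1 UMI, 1 line per hashtag (left), and the same difference on the log2 scale for all 18 surface antibodies (right, mean and SD over 7 hashtags). All 7 lines rise, from 45.5 to 80.0 up to 179 to 320, and CD106 has the largest mean difference at 1.89.

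Other transcripts of the immature neutrophils with a Vcam1 UMI were compared with those of the rest in the 4 hashtags that had at least 10 such cells. Of 5911 genes 1207 were higher and 876 lower (edgeR, 35.2% called). The gap in depth named above holds here too, and with cells of at least 10000 UMIs in 6 hashtags 899 genes were called.

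Azurophil and progenitor genes led the rise, and all 5 of the granulocyte-monocyte progenitor list were called higher, where 20.4% of all tested genes were. Elane, neutrophil elastase, stood at 1109 CPM in cells with a Vcam1 UMI and 27.0 CPM in the rest, a log2 difference of 5.20 ± 0.31 (SE, edgeR adjusted p = 1.8e-13). Prtn3, proteinase 3, rose by 4.74 ± 0.20, Mpo, myeloperoxidase, by 4.02 ± 0.28, and Ctsg, cathepsin G, by 3.07 ± 0.27. Ms4a3, a marker of this progenitor, rose by 2.86, and Nkg7 (3.36), Tnfsf13 (2.81) and Gas2l3 (2.37) complete the 8 largest rises. The 8 largest falls included Retnlg and Cstdc5, leading genes of the mature neutrophil-like cluster 4. Retnlg, a resistin-like secreted protein, fell from 9464 to 930 CPM (-3.71 ± 0.30), and Cstdc5 (-6.09), Nt5e (-4.48), Chil5 (-4.25), Trpm2 (-3.68), Bst1 (-3.64), Ifit1bl2 (-3.63) and Myadm (-3.61) were the others.

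The receptors of VCAM-1 followed only in part. Itgb1, the beta1 chain, was higher by 0.73 ± 0.26 (edgeR adjusted p = 0.0297), while Itga4, the alpha4 chain, differed by 0.16 ± 0.25 and did not pass. DESeq2 called neither. Of the proteases that shed or cleave VCAM-1, Elane and Ctsg were higher and Mmp9, gelatinase B, lower (-2.59 ± 0.17), while Adam10 (0.11) and Adam17 (-0.59) did not pass. All 3 beta-2 integrin chains measured, the leukocyte adhesion receptors for ICAM-1, were lower, with Itgal at -0.81, Itgam at -0.79 and Itgb2 at -0.61. Selplg, the selectin ligand PSGL-1, was lower by -1.06. Of the partners of the cytoplasmic tail, Rdx (radixin) was higher by 0.69, and Ezr and Msn did not pass. Of all tested genes 20.4% were called higher and 14.8% lower, and the counts in these short lists are to be read against that.

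Of 6 measured regulators of Vcam1 transcription 3 were lower and none higher (Irf2 -0.86, Klf2 -0.92, Nfkb1 -0.59), and Spi1, Irf1 and Rela did not pass. The comparison called 14.8% of all tested genes lower, and a list of 6 is too short to set against that share. Cxcr4, the chemokine receptor of marrow retention, did not pass (-0.36). Neither of the 2 measured macrophage markers passed (Hmox1 -0.35, Slc40a1 -0.25). Over all 12 macrophage markers, immature neutrophils with a Vcam1 UMI held 93.7 CPM and those without 105 CPM, and Cd5l, Vsig4, Siglec1 and Mertk were at 0 in the former. In the 1485 cells without a Vcam1 UMI Siglec1 and Mertk were at 0 too, and Cd5l and Vsig4 had 1 and 4 UMIs, so these zeros do not set the groups apart. A C1q UMI was found in 6 of 100 against 2.56% of the others. Without cells with a C1q UMI, the CD106 difference was 1.94 and 2024 genes were called. The stroma and endothelium list summed to 0.55 and 0.81 CPM, with 5 of its 6 markers at 0 in cells with a Vcam1 UMI. Among marrow Kit-positive cells, 7 of 34 with a Vcam1 UMI had a C1q UMI against 4.29% of those without, and the macrophage list stood at 67.7 against 19.7 CPM. Without cells with a C1q UMI, Kit-positive cells had a mean of 5.93 CPM and lay below immature neutrophils by -0.998 (edgeR adjusted p = 0.0155).

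Between marrow classes the partner genes moved as follows. Against mature neutrophils, immature neutrophils had higher Itgb1 (33.1 against 12.8 CPM, 1.26 ± 0.17) but lower Itga4 (34.8 against 127 CPM, -1.87 ± 0.13) and Itgb7 (-3.23 ± 0.42), all called by edgeR, where 58.9% of genes were. The comparison called 31.8% of all tested genes higher and 27.0% lower, and the list counts that follow are to be read against these shares. Of 7 other adhesion ligands and selectins 5 were lower and none higher, led by Selplg (107 against 600 CPM, -2.51) and including Pecam1 (-1.35) and Icam1 (-1.79). 6 of 7 regulators were lower, with Irf2 at -1.31, Klf2 at -1.33 and Irf1 at -1.57. Adam17 was lower by -0.96, Cxcr4 by -0.38 (not called by DESeq2), and all 3 measured macrophage markers were lower (Adgre1 -3.73). The early progenitor list had 1 member higher (Hlf, 3.15) and 1 lower (Meis1, -1.54, not called with TMM) of 5, and none of 6 erythroid or 4 basophil and mast cell genes passed.

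Kit-positive cells carried more transcript of the receptors than immature neutrophils. Itga4 stood at 192 against 34.8 CPM (2.43 ± 0.11), Itgb1 at 109 against 33.1 CPM (1.76 ± 0.10) and Itgb7 was 3.51 ± 0.35 higher, and all 3 stayed higher with TMM scaling and with DESeq2. Of 7 other adhesion ligands 6 were higher (Pecam1 3.30, Icam1 3.16, Icam2 3.89) and Selplg was lower (-0.70). All 3 beta-2 integrin chains were lower (Itgam -5.84), where 20.55% of all tested genes were. Gata2 (7.54) rose and Spi1 (-1.72) and Klf2 (-4.02) fell among the regulators. Adam10 (0.70) and Adam17 (0.61) were higher here. With TMM scaling, which moved the median gene from 1.12 to 0.33 and the share of higher calls from 76.6 to 58.7%, they were at -0.10 and -0.19 and did not pass, and DESeq2 called neither. Of the lists that mark cell types, 6 of 6 erythroid, 5 of 5 early progenitor, 5 of 5 granulocyte-monocyte progenitor and 4 of 4 basophil and mast cell genes were higher, in a comparison that called 67.2% of all tested genes higher. The share of the adhesion ligands is to be read against that. Kit itself was at 0 in immature neutrophils by the class rule. Monocytes too carried more Itga4 (216 CPM), Itgb1 (145 CPM) and Itgb7 (187 CPM) than immature neutrophils, while their Vcam1 RNA was at 0 in 6 of 8 hashtags.

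Hashtags with more Vcam1 RNA in a class tended to carry more CD106 in it. Over 8 marrow hashtags Pearson's r was 0.817 in immature neutrophils (permutation p = 0.0129, adjusted p = 0.0283 over 4 classes, rho 0.762 with adjusted permutation p = 0.115), and 0.724 without the 2 hashtags farthest from the median. In Kit-positive cells r was 0.773 (permutation p = 0.0142, adjusted p = 0.0283, rho 0.714 with adjusted permutation p = 0.115), and 0.738 without 2 hashtags. With CD106 per cell in place of the scaled value it was 0.686 (adjusted permutation p = 0.0926). Mature neutrophils (r 0.311, permutation p = 0.564) and monocytes (r 0.403, permutation p = 0.25) gave values that did not pass, and r in mature neutrophils was 0.029 without 2 hashtags.

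By tissue, given as description, Vcam1 RNA levels in spleen lay near those of marrow in matched neutrophil clusters, with less antibody signal. In cluster 14 the level was 3.88 CPM in marrow (49 UMIs, 1333 cells) and 3.92 CPM in spleen (7 UMIs, 144 cells), with median CD106 counts of 7 and 1. With 7 UMIs the spleen level of this cluster is imprecise. In cluster 21 it was 30.4 CPM in 390 marrow cells and 38.1 CPM in 64 spleen cells, with median counts of 31.5 and 6.5. Over hashtags, spleen immature neutrophils had 10.3 ± 5.97 CPM and 37.6 ± 16.3 CD106 counts per 10000 (SD, n = 5), against 10.7 and 79.9 in marrow. Cluster 19 differed in both, with 2.18 CPM and a median count of 11 in marrow against 0.31 CPM and 1 in 285 spleen cells. Each tissue is 1 library, so tissue, library, staining and the mix of cells cannot be told apart.

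Spleen Kit-positive cells had 2.42 ± 2.07 CPM and 33.3 ± 12.05 CD106 counts per 10000 (SD, n = 8), spleen mature neutrophils 0.59 ± 0.88 CPM and 4.72 ± 1.52, and spleen monocytes 0.51 ± 1.44 CPM and 8.87 ± 2.25. Over all cells, with or without an assigned hashtag, the RNA level was 4.87 CPM in spleen Kit-positive cells and 3.05 CPM in spleen mature neutrophils. Blood mature neutrophils had 0 CPM and 0.39 ± 0.17 CD106 counts per 10000, and blood monocytes 0 CPM and 1.06 ± 0.74 (n = 8 each). Among these groups, the ranges of CD106 in marrow and blood did not overlap in either class. This gap between tissues is part of what CD106 was chosen on, so it is no separate result. By cluster, all spleen Vcam1 UMIs divided mainly into the conventional dendritic-like clusters 10 (25.5%) and 17 (16.9%), cluster 21 (22.8%), 34 macrophage-like cells of cluster 15 (17.2%) and 10 cells of cluster 20 (10.1%).

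The gap between marrow and blood was larger for CD106 than for any of the other 17 surface antibodies in the 3 classes that could be set side by side. CD106 was chosen on its counts by tissue, so this rank describes the choice and is no separate result. The ratio of CD106 counts per cell was 57.6 in mature neutrophils, where the next antibody, CD64, stood at 5.52 and the median of the others at 1.23. It was 86.6 in Kit-positive cells, of which blood held 41, and 9.95 in monocytes. These classes held different cells in the 2 tissues, since 75.6% of blood Kit-positive cells lay in the conventional dendritic-like cluster 10 and 94.2% of blood monocytes in cluster 6. Between marrow and spleen CD106 ranked 1 in mature neutrophils (5.97) and Kit-positive cells (3.37), 3 in immature neutrophils (2.05) and 4 in monocytes (1.15).

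In the tumor, where the sample was small, 118 cells that met the monocyte rule held 50 Vcam1 UMIs (13.2 CPM) and 4.76 CD106 counts per 10000, and 68.6% of them had a C1q UMI. The 64 cells that met the mature neutrophil rule held 0 Vcam1 UMIs at a median of 4017 UMIs. This allows up to 5.60% of cells with a captured UMI and sets no limit on cells that express the gene. They had 8.17 CD106 counts per 10000. Most of the other tumor UMIs lay in cluster 16 (61.6% of all), led by mitochondrial genes, of which 1 cell held 42 UMIs with 55 Krt8 UMIs, a keratin, and another held 32 with 15 Cdh5 UMIs, an endothelial cadherin. Antibody counts after digestion cannot be set against those of undigested tissue.

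The genes whose pattern was most like that of Vcam1 were named by correlation of log2(CPM + 1) over 30 groups of class or cluster by tissue, among 9837 genes. They were Ffar2 (Pearson's r 0.813), Ada (0.801), Fnbp1l (0.771), Cd81 (0.765), Gys1 (0.759), Mpzl1 (0.739), Erg (0.702) and Clec4b2 (0.692). The groups share libraries, depth and, where a cluster and a class overlap, cells, so r is a description.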

How the data were processed

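Counts per cell for 32285 genes, 18 surface antibodies and 8 hashtags were used as the authors deposited them, as unnormalized UMI counts from Cell Ranger 7.0.1, per the file headers, on mm10, per the submitters' processing notes. How cells were filtered before deposit is not given in the sources used here. No cell was removed and no doublet caller was run. A cell was given a hashtag at 20 or more counts and 3 times the next hashtag, which 17960 of 20012 cells met, 47.0% of tumor cells and 89.6 to 91.9% elsewhere. Cells with several hashtags stayed out of sums.

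Counts were summed per hashtag and class with at least 20 cells. Genes with at least 100 UMIs were tested with edgeR 4.0.16 (R 4.3.3, total UMIs as library sizes, hashtag as block, Benjamini-Hochberg adjustment, threshold 0.05), tested first on simulated data. Classes share a hashtag because 1 hashtag is taken as 1 mouse, which is where the pairing comes from. CD106 sums per 10000 surface antibody counts were compared with exact sign-flip tests, enumerated with numpy 2.4.6. Cells were clustered with scanpy 1.11.5 (2000 variable genes, 30 components, 15 neighbors, Leiden resolution 1) and named from marker lists. Intervals are exact Clopper-Pearson at 95% (scipy 1.17.1).

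The gene, class rules, partner lists and markers were chosen with earlier results of these data known. Named genes are Vcam1, the listed partners, the 8 largest rises and falls among called genes, and the 8 most like patterns. DESeq2 1.42.0, TMM factors, other class rules, filters and leaving out each hashtag were alternatives. No list gene of stroma and endothelium reached 100 UMIs.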

Additional observations from a re-analysis of the deposited data

Results flagged for a closer look

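Of 16 groups of hashtags examined, 4 held a hashtag far from the others by Dixon's ratio, and chance gives about 5% of groups. In marrow mature neutrophils, Vcam1 of hashtag 8 was 15.4 CPM, against 0 to 3.73 in the other 7, and 10 of its 11 UMIs came from 1 cell with 113 CD106 counts and 768 Elane UMIs. In spleen immature neutrophils, Vcam1 of hashtag 3 was 0 CPM, against 10.4 to 14.3 in the other 4. CD106 per 10000 antibody counts was 58.6 in spleen Kit-positive cells of hashtag 4, against 20.2 to 37.4 in the other 7. It was 8.003 in spleen mature neutrophils of hashtag 3, against 2.99 to 5.32 in the other 7.

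A signal also stood in cells that the comparisons leave out. A marrow cell with several hashtags held 18990 CD106 counts with 14 Vcam1 and 799 Elane UMIs, and it lies in cluster 21 and in the bin with both granule signatures.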

How the results depend on the processing

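Of the alternative values for the tests and counts, 233 kept their direction and call, 15 lost the call, 3 gained it, 3 changed sign and 4 moved. For Vcam1 RNA, Kit-positive against immature cells lost its call with cells in every class whose rule they meet (-0.35, edgeR adjusted p = 0.208), with the S100 share at 5% (-0.71, 0.0767), with no replicate block (-0.85, 0.0544) and with DESeq2 (-1.36, 0.114). The block changed no other call. Kit-positive against mature cells was 0.95 with no filter on low counts (edgeR adjusted p = 0.0221), -0.16 with at least 2 Kit UMIs (0.785) and -0.38 without azurophil-high cells (0.634). Immature against mature was 0.84 with at least 2 Kit UMIs (edgeR adjusted p = 0.0949). The causes were not tested.

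For CD106, Kit-positive against immature cells was -0.052 per cell with no scaling (exact permutation adjusted p = 0.766), and monocytes against mature was -0.15 with cells in every class (exact permutation adjusted p = 0.461). The difference by Vcam1 UMI in Kit-positive cells was 2.15 with cells in every class, which gives 7 hashtags in place of 2. In immature cells it was 1.26 from 10000 UMIs (adjusted permutation p = 0.0625), where 6 hashtags remain. Genes called numbered 1342 with DESeq2 and 899 from 10000 UMIs. The correlation in Kit-positive cells was 0.686 with CD106 per cell (adjusted permutation p = 0.0926), and in mature cells 0.029 without 2 hashtags.

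Leaving out each hashtag gave these ranges. For RNA they were -1.30 to -0.63 (Kit-positive against immature), 0.41 to 2.58 (Kit-positive against mature), 2.80 to 4.78 (Kit-positive against monocytes), 1.496 to 3.38 (immature against mature), -5.76 to -3.89 (monocytes against immature) and -3.97 to -0.75 (monocytes against mature). For CD106 they were, in that order, 0.79 to 0.95, 2.77 to 2.95, 3.58 to 3.74, 1.90 to 2.08, -2.83 to -2.70 and -0.85 to -0.69. The CD106 difference by Vcam1 UMI was 1.82 to 2.01 in immature cells and 1.52 in Kit-positive cells. In immature cells 5 of 8 omissions gave an adjusted permutation p of 0.0625, the smallest that 6 hashtags allow when Kit-positive cells share the adjustment. Without hashtag 2 or 3, which also leaves 6 hashtags, only immature cells could be tested, and the adjusted permutation p was 0.03125. Genes called ranged from 1339 (without hashtag 6) to 1853. Counts thinned to 1000 UMIs left Vcam1 under the filter and gave no fit. Depth limits shares of cells with a UMI, and with all cells, hashtag or not, spleen Kit-positive and mature cells had 4.87 and 3.05 CPM.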
